A study of Mus musculus with 18 samples.

Results

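Cell cycle and proliferation genes were described in the lacrimal gland (LG) of male mice of 2 strains at 3 ages. The set held 40 genes of the 54232 in the count table, taken by gene name from a list of S phase and mitosis genes. It was divided into 6 roles: licensing and firing of replication origins (9 genes), the replication fork and nucleotide supply (6 genes), cyclins, Cdk1 and transcription factors (7 genes), chromosome condensation and chromatin (6 genes), mitotic kinases and checkpoint (7 genes), and spindle and kinetochore (5 genes). Each of the 18 libraries was made from the total RNA of 1 LG of 1 male mouse, depleted of ribosomal RNA, with 3 mice in each of 6 groups. The groups were BALB/cJ (called BALB/c below) at 2, 4 and 6 months (2M, 4M and 6M) and NOD.B10Sn-H2b/J (called NOD.H-2b below) at the same ages. The labels name no treatment and no transgene. NOD.H-2b is a NOD strain with the H2b haplotype that develops autoimmune disease of its exocrine glands and serves as a model of Sjögren's syndrome. BALB/c is another inbred strain, used as the control, so the disease and all other genetic differences between the strains cannot be told apart. All 40 genes had counts in all 18 mice.

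A dividing cell copies its DNA in S phase and separates the copies in mitosis. Many genes of S phase are transcribed under E2F factors when the retinoblastoma protein is inactivated, and many genes of mitosis are transcribed later, under B-Myb and Foxm1 with the MuvB complex. Resting cells hold both groups down through the DREAM complex. In the adult LG, acinar, ductal and myoepithelial cells divide rarely, while lymphocytes divide when they are activated by antigen.

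The levels are given as CPM, counts scaled to a common library total, after TMM normalization over the 18 mice, and values of 3 mice follow the order of replicates 1, 2 and 3. A difference between strains is a log2 fold change, NOD.H-2b minus BALB/c, with its standard error, from edgeR's quasi-likelihood test on the raw counts. A gene was called at a Benjamini-Hochberg adjusted p (FDR) under 0.05 over all genes tested, and "rose" or "higher" and "fell" or "lower" are used for called differences. The totals per mouse were 49480781 to 103936830 counts. The acinar list of 10 genes, which includes secreted LG proteins, summed to between 47170 and 106800 CPM per mouse, and the 8 skeletal muscle genes to at most 1.57 CPM, so the libraries carried the markers of the labelled tissue.

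The promoters of the set carried the short motifs that are known from cell cycle genes. RefSeq promoter windows (GRCm38.p6, 250 bases before to 50 bases after the start site) were found for 33 of the 40 genes. The start sites used for Mcm7, E2f1 and Cdc6 lay 539, 466 and 350 bases inside the 5′ end of the annotated gene. The windows of these genes may therefore not cover the promoter at that end, and a motif not found there may lie outside the window. Searched on both strands were the cell cycle genes homology region (CHR, with the letters TTTGAA or else TTCGAA), which is bound by MuvB complexes, the CCAAT box (CCAAT), which is bound by NF-Y, and E2F motifs (the letters TTGGCGC and, as variants of them, TTCCCGC, further TTCGCGC, and last TTGCCGC). E2F motifs of opposite strands can overlap each other. The CHR was found in 17 of the 33 promoters (51.5%) and in 19.4% of all 27025 promoters of that length. A CCAAT box was found in 26 of 33 (78.8%) against 37.9% of all promoters, and an E2F motif in 14 of 33 (42.4%) against 9.72%. All 17 promoters with a CHR also held a CCAAT box, a combination found in 7.66% of all promoters. No window was held for Aurkb, Ccna2, Foxm1, Mcm4, Smc4, Stmn1 and Tpx2. The 150 bases before the start site are shown for 5 genes on which the results below turn: Cdc20 and Kif11 for mitosis, Cdk1 with all 3 motifs, Mcm6 for the licensing of origins, and Mki67, which holds the same motifs and was called at 4M alone of the 3 ages. Capitals mark matches to these motifs. The coordinates count along the plus strand, while the letters run 5′ to 3′ along the gene.
Cdc20 (chr4:118437344-118437493, minus strand): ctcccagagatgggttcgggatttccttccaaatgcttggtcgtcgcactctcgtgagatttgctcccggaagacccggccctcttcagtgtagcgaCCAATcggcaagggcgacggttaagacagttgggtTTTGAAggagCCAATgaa
Kif11 (chr19:37376232-37376381, plus strand): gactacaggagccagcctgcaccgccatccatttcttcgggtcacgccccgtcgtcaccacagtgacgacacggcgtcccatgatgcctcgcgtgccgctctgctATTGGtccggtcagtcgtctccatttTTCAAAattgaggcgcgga
Cdk1 (chr10:69352913-69353062, minus strand): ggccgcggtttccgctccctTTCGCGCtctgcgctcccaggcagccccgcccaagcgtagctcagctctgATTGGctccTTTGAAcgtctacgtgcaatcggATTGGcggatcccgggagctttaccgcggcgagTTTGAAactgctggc
Mcm6 (chr1:128359706-128359855, minus strand): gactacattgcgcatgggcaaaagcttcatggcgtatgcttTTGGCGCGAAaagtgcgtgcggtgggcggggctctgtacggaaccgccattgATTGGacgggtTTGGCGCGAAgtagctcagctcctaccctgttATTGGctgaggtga
Mki67 (chr7:135716380-135716529, minus strand): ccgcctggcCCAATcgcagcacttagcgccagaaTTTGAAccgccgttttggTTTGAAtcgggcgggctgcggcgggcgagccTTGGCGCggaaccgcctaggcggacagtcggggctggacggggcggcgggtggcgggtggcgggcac
In Cdc20 and Kif11 the CHR starts 18 and 19 bases before the start site, in Kif11 on the opposite strand. In Mcm6 no CHR was found in the window, and pairs of overlapping E2F motifs start 109 and 46 bases before the start site. In Mki67 the CHRs start 116 and 98 bases before the start site.

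Cell cycle genes were higher in NOD.H-2b LGs than in BALB/c LGs at all 3 ages. At 2M, 30 of the 40 genes were called higher and 2 called lower, where 22.5% of all 17200 genes tested were higher and 17.2% lower. At 4M, 33 genes were higher and 0 lower (33 genes, and 49.8% of all genes, had an unadjusted p under 0.05), with 23.4% of all genes higher and 19.2% lower. At 6M, 27 genes were higher and 1 lower, with 28.6% of all genes higher and 25.8% lower. The median log2 fold change of the 40 genes was 1.26, 1.99 and 1.96 at 2M, 4M and 6M, beside medians of 0.01, 0 and -0.004 over all genes tested. The calls were DEGs (FDR under 0.05 and at least a 2-fold change) for 21, 25 and 21 genes, against 12%, 15.6% and 18.8% of all genes tested. Averaged over the ages in a fit of all 18 mice, 33 genes were higher and 2 lower, with a median of 1.69, where 32.5% of all genes were higher and 33.1% lower. All 40 genes passed the filter on low counts in these comparisons, but Aurkb, Birc5, Bub1, Ccnb1, Kif11 and Plk1 failed the same filter among the BALB/c mice of 4M and 6M, so at these ages they passed through the NOD.H-2b mice. Aurkb and Bub1 also failed it among the BALB/c mice of 2M and 6M, so at 2M they passed through the NOD.H-2b mice. With at least 10 counts required in every mouse, 22 of 29 genes tested were higher and 0 lower at 4M, where 21% of all genes were higher and 18.8% lower. At 6M under that rule, 21 of 29 were higher and 0 lower, where 26.4% of all genes were higher and 25.4% lower. At 2M under that rule, 22 of 32 were higher and 2 lower, where 20.9% of all genes were higher and 17.2% lower. In whole glands, more dividing cells and more of these RNAs per cell cannot be told apart.

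**Figure D1:**
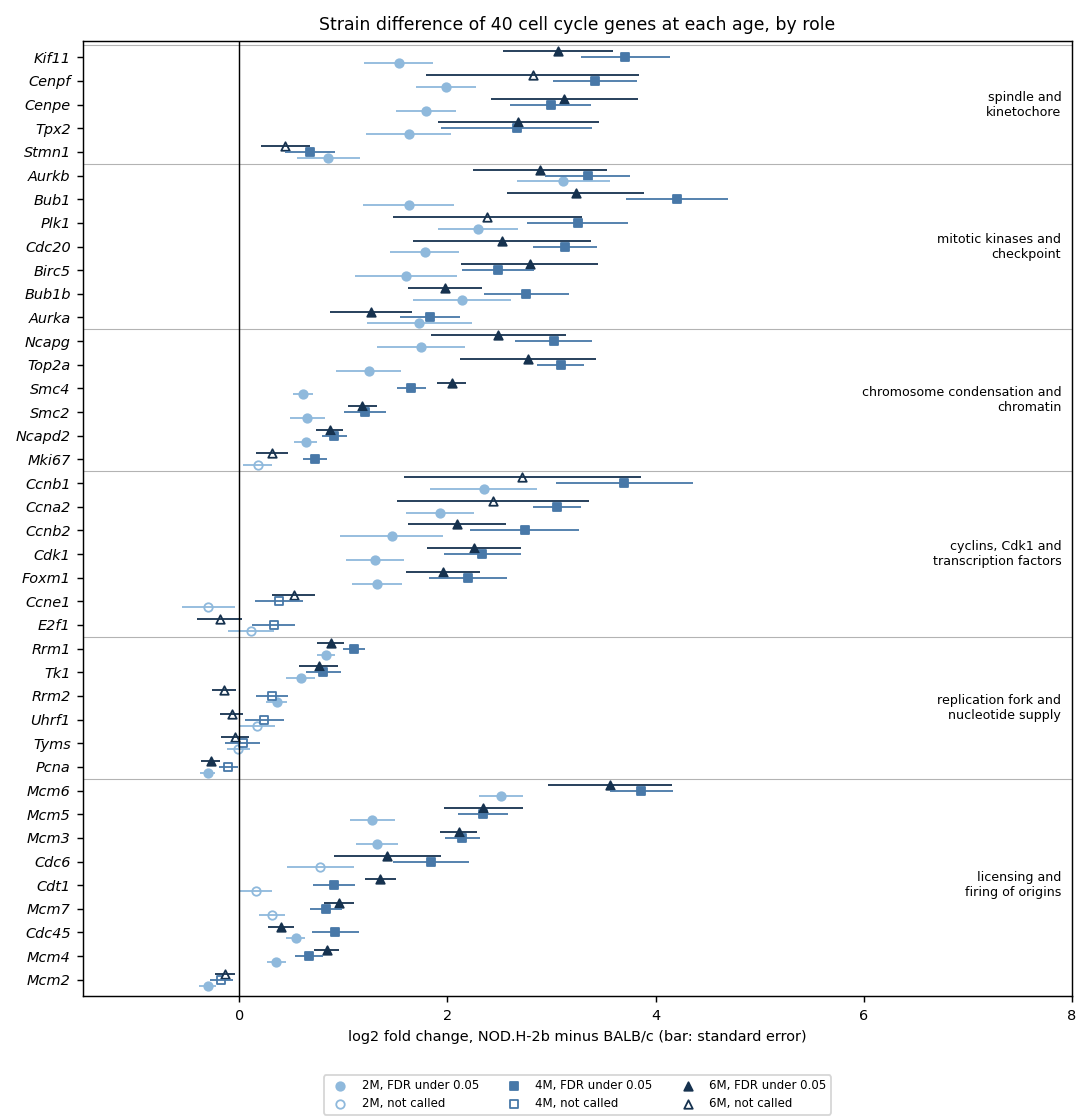
Log2 fold change (x axis, NOD.H-2b minus BALB/c, bars are standard errors) of all 40 genes (y axis) at 2M, 4M and 6M, grouped by role. Filled symbols have an FDR under 0.05. The mitotic kinase and checkpoint genes lie between 1.60 and 3.11 at 2M, 1.83 and 4.21 at 4M, and 1.27 and 3.23 at 6M, and Mcm2, Pcna, Rrm2, Tyms and Uhrf1 lie near 0.

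Mitotic kinase and checkpoint genes were higher in NOD.H-2b with few exceptions. The 7 genes of this role were Plk1, Aurka and Aurkb (kinases of centrosomes, spindle and chromosome passengers), Birc5 (survivin, a partner of Aurkb), Bub1 and Bub1b (kinases of the spindle checkpoint at the kinetochore) and Cdc20 (the activator of the anaphase-promoting complex). At 2M and 4M all 7 were higher, and at 6M 6 of them, with medians of 1.78, 3.13 and 2.52. The CPM of the 7 genes did not overlap between the strains at any age, where 25.3%, 28.4% and 31.3% of all genes were without overlap and higher in NOD.H-2b at 2M, 4M and 6M. Aurkb, Birc5, Bub1 and Plk1 of this role passed the filter at 4M and 6M through the NOD.H-2b mice. Aurkb and Bub1 passed it in that way at 2M as well. The calls, medians and lack of overlap at each age include such genes and are not a test of the role. Cdc20 had the highest level per kilobase of the 7 genes (a mean of 0.839 CPM per kb over the 18 mice). In BALB/c, Cdc20 was at 1.22, 0.7 and 0.511 CPM at 2M, 0.184, 0.305 and 0.418 CPM at 4M, and 0.0644, 0.256 and 1.12 CPM at 6M. In NOD.H-2b, Cdc20 was at 2.76, 1.89 and 3.46 CPM at 2M, 2.54, 2.38 and 3.14 CPM at 4M, and 2.02, 3.22 and 2.02 CPM at 6M. The lowest NOD.H-2b mouse was above the highest BALB/c mouse at each age, and BALB/c 6M replicate 3 was above both other BALB/c 6M mice. From the youngest to the oldest mice, the log2 fold changes of Cdc20 were 1.78 ± 0.34, 3.13 ± 0.31 and 2.52 ± 0.86 (adjusted p = 0.002, 4.89e-05 and 0.0476).

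Bub1 had the highest log2 fold change of the role at 4M and 6M and the lowest level per kilobase of the 40 genes (0.1195 CPM per kb). In BALB/c, Bub1 was at 0.268, 0.179 and 0.0882 CPM at 2M, 0.0369, 0.0609 and 0.0597 CPM at 4M, and 0.0215, 0.106 and 0.327 CPM at 6M, which rests on 2 to 14 counts per mouse. In NOD.H-2b, Bub1 was at 0.476, 0.457 and 0.676 CPM at 2M, 1.17, 0.603 and 1.26 CPM at 4M, and 1.58, 0.98 and 1.02 CPM at 6M, from 29 to 121 counts. The strains differed by 1.63 ± 0.44, 4.21 ± 0.49 and 3.23 ± 0.66 on the log2 scale at 2M, 4M and 6M (adjusted p = 0.0113, 0.000124 and 0.00278). Bub1b, which holds back anaphase until all chromosomes are attached, was at 0.516, 0.485 and 0.106 CPM at 2M, 0.129, 0.305 and 0.432 CPM at 4M, and 0.365, 0.341 and 0.912 CPM at 6M in BALB/c. NOD.H-2b mice had Bub1b at 1.17, 1.49 and 2.06 CPM at 2M, 1.92, 1.44 and 2.62 CPM at 4M, and 2.25, 1.93 and 1.81 CPM at 6M. Its log2 fold change was 2.14 ± 0.47, 2.76 ± 0.41 and 1.97 ± 0.36 at the 3 ages (adjusted p = 0.00533, 0.000498 and 0.00106), so Bub1 and Bub1b, which act at the same site, were both higher at each age. Aurkb differed by 3.11 ± 0.45, 3.35 ± 0.41 and 2.89 ± 0.65, a similar size at each age, and Aurka by 1.73 ± 0.50, 1.83 ± 0.29 and 1.27 ± 0.40, the smallest of the role at 4M and 6M. Birc5 differed by 1.60 ± 0.49, 2.49 ± 0.34 and 2.79 ± 0.66. Plk1 differed by 2.29 ± 0.38 and 3.25 ± 0.49 at 2M and 4M, and by 2.38 ± 0.91 at 6M, where its adjusted p was 0.0645 and it was not called.

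The spindle and kinetochore genes followed the same pattern, apart from Stmn1. Kif11 (the motor that pushes the spindle poles apart), Tpx2 (which builds spindle microtubules and activates Aurka), Cenpe (a kinetochore motor), Cenpf (a kinetochore protein) and Stmn1 (stathmin, which destabilizes microtubules) were all higher at 2M and at 4M, and 3 of the 5 at 6M. Tpx2 was at 1.3, 1.06 and 0.476 CPM at 2M, 0.0369, 0.488 and 0.805 CPM at 4M, and 0.225, 0.106 and 1.31 CPM at 6M in BALB/c. The NOD.H-2b mice had 2.53, 1.89 and 4.07 CPM at 2M, 3.13, 2.06 and 3.44 CPM at 4M, and 3.33, 3.66 and 2.51 CPM at 6M. The log2 fold changes of Tpx2 were 1.63 ± 0.41, 2.67 ± 0.73 and 2.68 ± 0.78, and the strains did not overlap at any age although the BALB/c 4M mice spread from 0.0369 to 0.805 CPM. Cenpf was at 0.86, 1.04 and 0.529 CPM at 2M, 0.203, 0.203 and 0.626 CPM at 4M, and 0.107, 0.149 and 1.75 CPM at 6M in BALB/c and at 2.89, 2.38 and 4.09 CPM at 2M, 3.44, 3.4 and 4.61 CPM at 4M, and 4.56, 4.38 and 3.52 CPM at 6M in NOD.H-2b. Its difference was 1.99 ± 0.29 at 2M and 3.42 ± 0.40 at 4M (adjusted p = 0.000258 and 0.000216). At 6M it was 2.82 ± 1.02 (adjusted p = 0.0698), not called, where BALB/c 6M replicate 3 held 75 counts and the other BALB/c 6M mice 10 and 7. Cenpe was at 0.803, 0.521 and 0.37 CPM at 2M, 0.166, 0.203 and 0.537 CPM at 4M, and 0.15, 0.213 and 1.15 CPM at 6M in BALB/c. In NOD.H-2b, Cenpe was at 1.76, 1.8 and 2.15 CPM at 2M, 2.66, 2.18 and 2.62 CPM at 4M, and 4.31, 4.45 and 2.89 CPM at 6M, highest at 6M. Its log2 fold changes were 1.80 ± 0.29, 2.99 ± 0.39 and 3.12 ± 0.71 (adjusted p = 0.00048, 0.000241 and 0.0104). Kif11 differed by 1.53 ± 0.33, 3.71 ± 0.43 and 3.06 ± 0.53, and Stmn1 by 0.85 ± 0.30, 0.68 ± 0.24 and 0.44 ± 0.24, not called at 6M.

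Of the cyclins, Cdk1 and the transcription factors, the genes of G2 and mitosis were higher in NOD.H-2b and those of the G1/S transition were not. Ccna2 (cyclin A2, of S phase and G2), Ccnb1 and Ccnb2 (the B cyclins that activate Cdk1), Cdk1 (the kinase of mitotic entry) and Foxm1 (a transcription factor of G2 genes) were called at 2M and 4M. Ccne1 (cyclin E1) and E2f1 (an activating E2F) were called in neither. Ccna2 was at 1.2, 1.31 and 0.652 CPM at 2M, 0.387, 0.589 and 0.522 CPM at 4M, and 0.268, 0.149 and 2.1 CPM at 6M in BALB/c. The levels of the NOD.H-2b mice were 3.91, 2.56 and 5.25 CPM at 2M, 4.33, 3.55 and 4.57 CPM at 4M, and 4.22, 4.69 and 3.44 CPM at 6M. The strains did not overlap at any age, and within BALB/c 6M the mice spread from 0.149 to 2.10 CPM. Ccna2 differed by 1.93 ± 0.33, 3.06 ± 0.23 and 2.44 ± 0.92 at 2M, 4M and 6M (adjusted p = 0.00151, 1.06e-05 and 0.0759), the last not called. Ccnb1 differed by 2.35 ± 0.52 and 3.70 ± 0.66, and by 2.72 ± 1.14 at 6M (adjusted p = 0.0941), where the BALB/c mice held 1, 3 and 38 counts. Cdk1 differed by 1.31 ± 0.28, 2.34 ± 0.37 and 2.26 ± 0.45, Ccnb2 by 1.47 ± 0.50, 2.74 ± 0.52 and 2.09 ± 0.47, and Foxm1 by 1.32 ± 0.24, 2.20 ± 0.38 and 1.96 ± 0.35, all called. E2f1 was at 4.24, 3.61 and 3.09 CPM at 2M, 2.43, 2.62 and 3.19 CPM at 4M, and 2.27, 2.6 and 3.95 CPM at 6M in BALB/c. E2f1 in NOD.H-2b was at 4.14, 2.59 and 4.76 CPM at 2M, 2.8, 3.21 and 4.34 CPM at 4M, and 2.6, 2.43 and 2.45 CPM at 6M. The strains overlapped at each age, and the log2 fold changes were 0.11 ± 0.22, 0.33 ± 0.21 and -0.19 ± 0.22 (adjusted p = 0.724, 0.234 and 0.49). Ccne1 differed by -0.30 ± 0.25, 0.38 ± 0.23 and 0.52 ± 0.21, the last with an adjusted p of 0.0561.

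**Figure D2:**
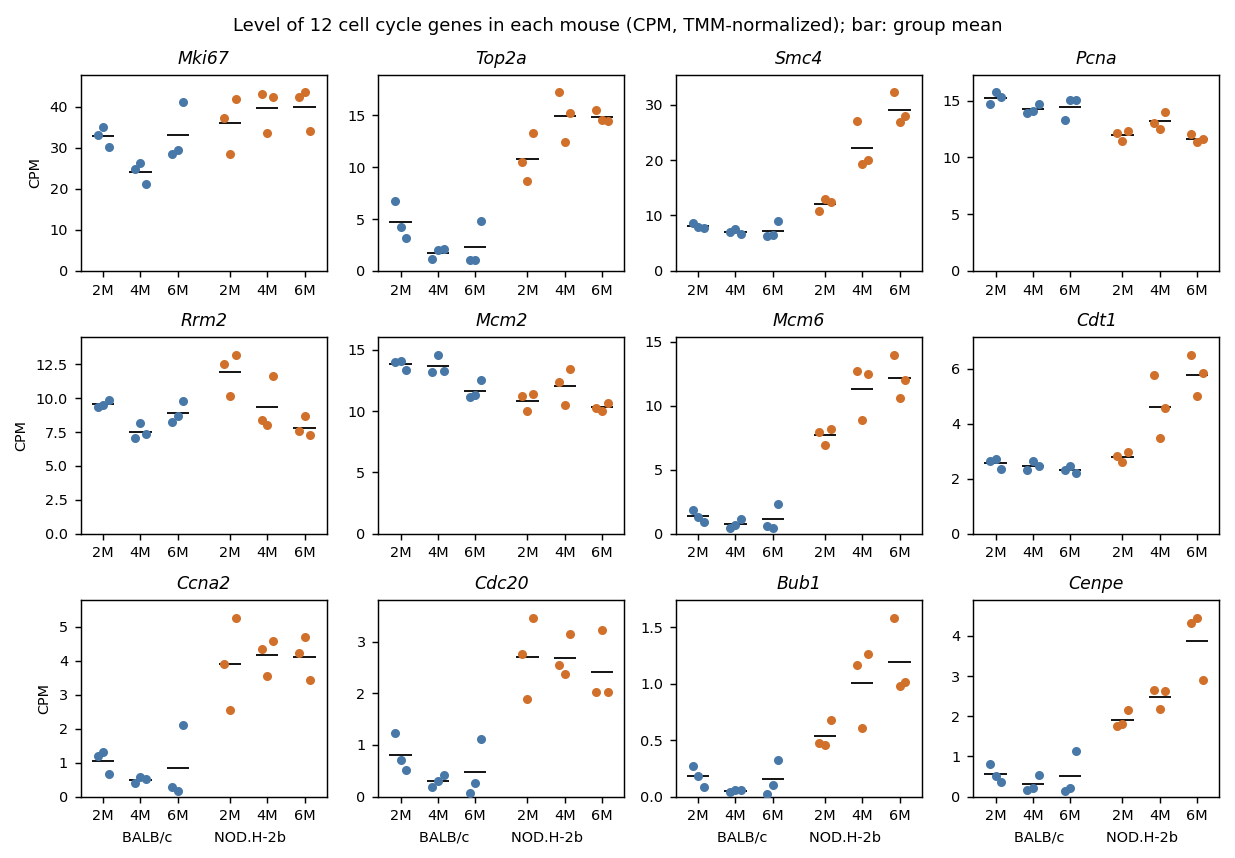
CPM (y axis, linear and from 0) of 12 cell cycle genes in each mouse, by age in BALB/c (blue) and NOD.H-2b (orange), with bars at the group means of 3 mice. The Ccna2, Cdc20, Bub1 and Cenpe points of the strains do not overlap at any age, and those of Mki67 overlap at 2M and 6M.

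The licensing and firing genes included Mcm6, with the largest strain difference of the set at 6M, and also Mcm2, which was not higher at any age. Mcm2 to Mcm7 encode the subunits of the replicative helicase, Cdc6 and Cdt1 load it onto origins, and Cdc45 joins it when the origin fires. At 2M, 5 of these 9 genes were higher and 1 lower, at 4M 8 were higher, and at 6M 8 were higher. Mcm6 was at 1.89, 1.35 and 0.935 CPM at 2M, 0.461, 0.711 and 1.13 CPM at 4M, and 0.59, 0.469 and 2.31 CPM at 6M in BALB/c. In NOD.H-2b, Mcm6 was at 7.92, 6.97 and 8.18 CPM at 2M, 12.7, 8.9 and 12.4 CPM at 4M, and 14, 10.6 and 12 CPM at 6M, so that the lowest NOD.H-2b mouse (6.97 CPM) was above the highest BALB/c mouse (2.31 CPM) of any age. The log2 fold changes of Mcm6 were 2.51 ± 0.21, 3.86 ± 0.31 and 3.56 ± 0.60 (adjusted p = 8.91e-06, 4.74e-05 and 0.0042), a 5.70-fold, 14.6-fold and 11.8-fold difference. Mcm3 differed by 1.32 ± 0.20, 2.14 ± 0.17 and 2.11 ± 0.18, Mcm5 by 1.28 ± 0.21, 2.34 ± 0.24 and 2.35 ± 0.38, and Mcm4 by 0.36 ± 0.093, 0.67 ± 0.13 and 0.84 ± 0.12, all called.

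Mcm2 was the subunit of the helicase that was not higher in NOD.H-2b. It was at 14, 14.1 and 13.3 CPM at 2M, 13.2, 14.6 and 13.3 CPM at 4M, and 11.1, 11.3 and 12.5 CPM at 6M in BALB/c. In NOD.H-2b, Mcm2 was at 11.2, 9.97 and 11.4 CPM at 2M, 12.3, 10.5 and 13.4 CPM at 4M, and 10.2, 10.03 and 10.7 CPM at 6M, below all BALB/c mice of its age at 2M and at 6M. The difference was -0.31 ± 0.079 at 2M (adjusted p = 0.00903), -0.18 ± 0.11 at 4M and -0.14 ± 0.093 at 6M (adjusted p = 0.239 and 0.236), called only at 2M of the 3 ages, and -0.23 ± 0.052 averaged over the ages (adjusted p = 0.00062). Per kilobase of annotated exon, the mean levels of Mcm2 to Mcm7 in BALB/c 6M were 1.67, 0.493, 1.78, 0.303, 0.241 and 1.00 CPM per kb in that order. In NOD.H-2b 6M they were 1.48, 2.08, 3.10, 1.44, 2.61 and 1.89 CPM per kb. The subunits with the lowest means in BALB/c 6M, Mcm6, Mcm5 and Mcm3, were those with the largest strain differences of the complex at that age.

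Mcm7 was at 5.04, 4.52 and 3.99 CPM at 2M, 4.63, 5.1 and 4.83 CPM at 4M, and 4.03, 3.96 and 5.31 CPM at 6M in BALB/c. NOD.H-2b mice had Mcm7 at 5.64, 5.65 and 5.09 CPM at 2M, 8.81, 6.94 and 10.2 CPM at 4M, and 9.22, 7.53 and 8.35 CPM at 6M. Mcm7 was not called at 2M (0.32 ± 0.12, adjusted p = 0.0623) and was higher at 4M and 6M (0.84 ± 0.15 and 0.96 ± 0.15, adjusted p = 0.00166 and 0.00036). Its exons overlap those of Cops6 and Ap4m1 on the other strand and of Mir25 and Mir93, so its counts are uncertain where strand was not used. Cdt1 was at 2.66, 2.73 and 2.36 CPM at 2M, 2.3, 2.66 and 2.45 CPM at 4M, and 2.31, 2.45 and 2.2 CPM at 6M in BALB/c. In NOD.H-2b, Cdt1 was at 2.84, 2.6 and 2.96 CPM at 2M, 5.78, 3.49 and 4.57 CPM at 4M, and 6.49, 5.02 and 5.86 CPM at 6M. Cdt1 was within the spread of the mice at 2M (0.16 ± 0.15, adjusted p = 0.452) and higher at 4M and 6M (0.91 ± 0.20 and 1.35 ± 0.15, adjusted p = 0.00499 and 4.57e-05). Cdc45 was at 10.7, 12.2 and 11.3 CPM at 2M, 8.7, 9.65 and 10.1 CPM at 4M, and 9.75, 11.1 and 9.42 CPM at 6M in BALB/c. In NOD.H-2b it was at 17.7, 16.4 and 14.3 CPM at 2M, 11.8, 19.1 and 22.7 CPM at 4M, and 12, 14.9 and 12.1 CPM at 6M, highest in 4M replicate 3. It was higher at each age (0.54 ± 0.089, 0.92 ± 0.23 and 0.40 ± 0.12, adjusted p = 0.000556, 0.0148 and 0.0189), and its exons overlap those of Ufd1 on the other strand. Cdc6 differed by 0.78 ± 0.32, 1.84 ± 0.36 and 1.42 ± 0.52, not called at 2M.

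The replication fork and nucleotide supply genes had the smallest medians of the roles at each age. At 2M, 3 of the 6 were higher and 1 lower, at 4M 2 were higher, and at 6M 2 were higher and 1 lower, with medians of 0.28 at 4M and -0.059 at 6M. Rrm1 and Tk1 were the genes that were higher at all 3 ages. Rrm1, the large subunit of ribonucleotide reductase, was at 7.01, 6.88 and 6.3 CPM at 2M, 6.03, 6.79 and 6.14 CPM at 4M, and 5.99, 7.29 and 8.51 CPM at 6M in BALB/c. In NOD.H-2b it was at 11.1, 11.9 and 11.9 CPM at 2M, 14.1, 12.7 and 13.7 CPM at 4M, and 14, 12.5 and 12.4 CPM at 6M. The strains did not overlap at any age, and the log2 fold changes were 0.83 ± 0.086, 1.10 ± 0.11 and 0.88 ± 0.13 (adjusted p = 1.92e-05, 3.97e-05 and 0.000336). Rrm2, the small subunit, which limits the enzyme in S phase, was at 9.36, 9.51 and 9.89 CPM at 2M, 7.06, 8.19 and 7.37 CPM at 4M, and 8.28, 8.69 and 9.77 CPM at 6M in BALB/c. Rrm2 in NOD.H-2b was at 12.5, 10.2 and 13.2 CPM at 2M, 8.37, 8.03 and 11.6 CPM at 4M, and 7.57, 8.66 and 7.26 CPM at 6M. Rrm2 was higher at 2M (0.36 ± 0.10, adjusted p = 0.0133) and not called at 4M and 6M (0.31 ± 0.15 and -0.15 ± 0.12, adjusted p = 0.13 and 0.309). The difference between the subunits was not tested. Tk1 (thymidine kinase) differed by 0.59 ± 0.14, 0.81 ± 0.17 and 0.76 ± 0.19, and its exons overlap those of Afmid. Tyms (thymidylate synthase) differed by -0.010 ± 0.11, 0.031 ± 0.17 and -0.046 ± 0.14, and Uhrf1 (which keeps DNA methylation at the fork) by 0.17 ± 0.17, 0.24 ± 0.19 and -0.072 ± 0.11, none of them called.

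Pcna, the sliding clamp of the fork, had the highest level per kilobase of the 40 genes (a mean of 5.62 CPM per kb over the 18 mice). It was at 14.7, 15.7 and 15.3 CPM at 2M, 13.9, 14.1 and 14.7 CPM at 4M, and 13.3, 15.1 and 15.1 CPM at 6M in BALB/c. In NOD.H-2b it was at 12.1, 11.5 and 12.4 CPM at 2M, 13.1, 12.5 and 14 CPM at 4M, and 12.1, 11.3 and 11.6 CPM at 6M. By the annotated gene alone it was lower in NOD.H-2b at 2M and 6M (-0.31 ± 0.071 and -0.28 ± 0.092, adjusted p = 0.00496 and 0.0276) and not called at 4M (-0.11 ± 0.089, adjusted p = 0.378). The lower calls were lost when reads of a copy were added. The processed pseudogene Pcna-ps2 (chr19:9283380-9284160, plus strand) had 0 to 6 counts in each BALB/c mouse and 106 to 205 counts in each NOD.H-2b mouse. With the counts of Pcna-ps2 added to Pcna, a choice made after the values were seen, the log2 fold changes were 0.009 ± 0.074 at 2M, 0.12 ± 0.089 at 4M and 0.009 ± 0.089 at 6M by edgeR's quasi-likelihood test (adjusted p = 0.936, 0.309 and 0.944). The summed level ranged from 13.3 to 15.7 CPM in BALB/c and from 13.8 to 16.2 CPM in NOD.H-2b. Whether Pcna-ps2 itself is transcribed in NOD.H-2b was not tested.

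Chromosome condensation and chromatin genes were higher in NOD.H-2b, with Mki67 as the exception at 2M and 6M. The role held Top2a (topoisomerase II alpha, which untangles sister DNA), Smc2 and Smc4 (the ATPase arms of condensin), Ncapd2 and Ncapg (condensin subunits) and Mki67 (the Ki-67 antigen, which coats mitotic chromosomes and is the usual stain for cycling cells). Of these 6, 5 were higher at 2M, 6 at 4M and 5 at 6M. Smc4 was at 8.64, 7.97 and 7.76 CPM at 2M, 6.97, 7.5 and 6.73 CPM at 4M, and 6.3, 6.54 and 9 CPM at 6M in BALB/c. In NOD.H-2b, Smc4 was at 10.8, 13 and 12.4 CPM at 2M, 27.1, 19.3 and 20.04 CPM at 4M, and 32.2, 26.9 and 28 CPM at 6M, with the 6M mice near or above the highest 4M mouse. Smc4 differed by 0.62 ± 0.096, 1.65 ± 0.14 and 2.04 ± 0.14 at 2M, 4M and 6M (adjusted p = 0.000386, 1.78e-05 and 2e-06), and Smc4 had the highest mean level per kilobase of the set in NOD.H-2b 6M (5.57 CPM per kb), above Pcna (4.86 CPM per kb). Its partner Smc2 differed by 0.65 ± 0.17, 1.21 ± 0.20 and 1.18 ± 0.14. Top2a differed by 1.24 ± 0.31, 3.09 ± 0.22 and 2.78 ± 0.65, Ncapg by 1.74 ± 0.42, 3.02 ± 0.37 and 2.49 ± 0.65, and Ncapd2 by 0.64 ± 0.11, 0.91 ± 0.12 and 0.87 ± 0.13, all called.

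Mki67 had the third highest level per kilobase of the set (a mean of 3.41 CPM per kb over the 18 mice). In BALB/c, Mki67 was at 33.1, 35 and 30.3 CPM at 2M, 24.8, 26.3 and 21.2 CPM at 4M, and 28.4, 29.6 and 41.3 CPM at 6M, from 1296 to 2650 counts per mouse. In NOD.H-2b, Mki67 was at 37.3, 28.6 and 41.9 CPM at 2M, 43.1, 33.6 and 42.5 CPM at 4M, and 42.4, 43.5 and 34.2 CPM at 6M. The strains overlapped at 2M and at 6M and not at 4M. Mki67 was higher at 4M (0.73 ± 0.12, adjusted p = 0.000858) and not called at 2M and 6M (0.18 ± 0.14 and 0.32 ± 0.15, adjusted p = 0.378 and 0.114).

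Within a group, the genes moved together by mouse. BALB/c 6M replicate 3 had the highest CPM of its group for 34 of the 40 genes, and for 20 of them more than 2 times the next mouse. BALB/c 2M replicate 3 was lowest of its group for 33 genes, BALB/c 4M replicate 1 for 33, NOD.H-2b 2M replicate 2 for 30 and NOD.H-2b 4M replicate 2 for 31, while NOD.H-2b 2M replicate 3 was highest for 34. Without BALB/c 6M replicate 3, 31 genes were higher at 6M and 0 lower, where 28.2% of all genes were then higher and 24.3% lower, and Ccna2, Ccnb1, Cenpf, Mki67 and Plk1 were called (log2 fold changes of 4.22 ± 0.30, 5.86 ± 0.60, 5.08 ± 0.29, 0.49 ± 0.12 and 4.66 ± 0.41 by edgeR's quasi-likelihood test, with adjusted p of 1.46e-05, 8.64e-05, 5.3e-06, 0.00706 and 3.69e-05). Pcna and Cdc45 were then not called (adjusted p = 0.053 and 0.0562). Pcna, the 1 gene lower at 6M, was also not called without BALB/c 6M replicate 2 or NOD.H-2b 6M replicate 2 or 3. BALB/c 6M replicate 3 had the lowest summed level of B cell genes of its group (1.03 CPM against 1.51 and 2.73 CPM) and of the leukocyte list (198 CPM against 201 and 206 CPM). Ptprc, which encodes CD45 of leukocytes, ran from 10.8 to 13.9 CPM in the group and was not lowest in this mouse. These values do not rank the 3 mice by their leukocytes. The part of B cells and other leukocytes in the values of BALB/c 6M replicate 3 was not tested.

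Changes with age were few in BALB/c and in the direction of lower levels. From 2M to 4M, 38 of the 40 genes passed the filter, 0 were higher and 6 lower, where 6.1% of all genes tested were higher and 5.01% lower. The 6 genes were Mki67 (-0.44 ± 0.082), Top2a (-1.41 ± 0.32), Cdk1 (-1.21 ± 0.36), Ccne1 (-0.83 ± 0.23), Uhrf1 (-0.68 ± 0.097) and Rrm2 (-0.35 ± 0.088), each as a log2 fold change from 2M to 4M. No gene of 34 tested was called from 4M to 6M by edgeR's quasi-likelihood test (3 had an unadjusted p under 0.05, as had 15.5% of all genes), where 0.174% of all genes were higher and 0.132% lower. By DESeq2's Wald test, 1 was higher and 0 lower. From 2M to 6M, 0 were higher and 1, Uhrf1, lower (-0.59 ± 0.10, adjusted p = 0.00745), where 3.48% of all genes were higher and 2.13% lower. Without BALB/c 6M replicate 3, 16 of 38 were lower from 2M to 6M and 0 higher, where 7.13% of all genes were then lower and 7.21% higher, among them Top2a (-2.13 ± 0.34, adjusted p = 0.00799), Cdk1 (-2.12 ± 0.36, adjusted p = 0.00147) and Cenpf (-2.70 ± 0.48, adjusted p = 0.00213). From 2M to 4M, 2 were lower without BALB/c 2M replicate 2 or BALB/c 4M replicate 1, 3 without BALB/c 2M replicate 1, and 9 without BALB/c 4M replicate 3, where the share of all genes that were lower went from 2.27% to 4.08% over the fits that left out 1 mouse. With the replicate number as a block 3 were lower from 2M to 4M, in 1 fit of all 18 mice 2, and with no filter on low counts 12. The comparisons that start at 2M share the 2M mice.

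In NOD.H-2b, between 0 and 12 of the 40 genes rose and between 0 and 4 fell in each comparison of ages. From 2M to 4M, 6 of 40 genes rose (Cdt1, Mcm3, Mcm5, Mcm6, Mcm7 and Smc4) and 0 fell, where 10.3% of all genes tested were higher and 5.48% lower. Smc4 rose by 0.88 ± 0.15 and Mcm3 by 0.77 ± 0.14 on the log2 scale (adjusted p = 0.0101 and 0.0116), and Smc4 and Mcm3 were the 2 of the 6 that were also called without each single mouse. Without NOD.H-2b 2M replicate 1 or 3, or 4M replicate 1 or 3, 2 rose, and without 2M replicate 2, 3 rose, while the share of all genes that were higher went from 1.85% to 8.87% over the fits that left out 1 mouse. Without 4M replicate 3, 2 fell. From 4M to 6M none was called by edgeR's quasi-likelihood test (3 of 40 had an unadjusted p under 0.05, as had 13.8% of all genes) and none by DESeq2's Wald test, where 0.00555% of all genes were higher and 0% lower. Without 4M replicate 1, 1 rose and 1 fell. Between 2M and 6M, 12 genes rose while 4 fell, where 20.7% of all genes were higher and 19.4% lower. The 12 were Cdt1, Mcm3, Mcm4, Mcm5, Mcm6, Mcm7, Smc2, Smc4, Top2a, Bub1, Kif11 and Cenpe, and not Mcm2, Ncapd2 or Ncapg, led by Smc4 (1.25 ± 0.10), Bub1 (1.14 ± 0.30), Cdt1 (1.03 ± 0.14) and Cenpe (1.01 ± 0.20), with adjusted p of 0.000346, 0.0149, 0.00111 and 0.00506. The 4 that fell were Uhrf1 (-0.83 ± 0.16), E2f1 (-0.63 ± 0.22), Rrm2 (-0.63 ± 0.12) and Cdc45 (-0.33 ± 0.12). Without NOD.H-2b 6M replicate 1, 6 rose, and without that mouse, 6M replicate 3 or 2M replicate 1 or 3, 2 fell. Of the 7 mitotic kinase and checkpoint genes, 1 (Bub1) was called from 2M to 6M, and their summed levels at 2M, 4M and 6M were 9.38 ± 2.58, 10.9 ± 1.55 and 11.1 ± 0.705 CPM (SD, n = 3). With the replicate number as a block, 7 rose and 2 fell from 2M to 6M, and 0 rose from 2M to 4M.

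**Figure D3:**
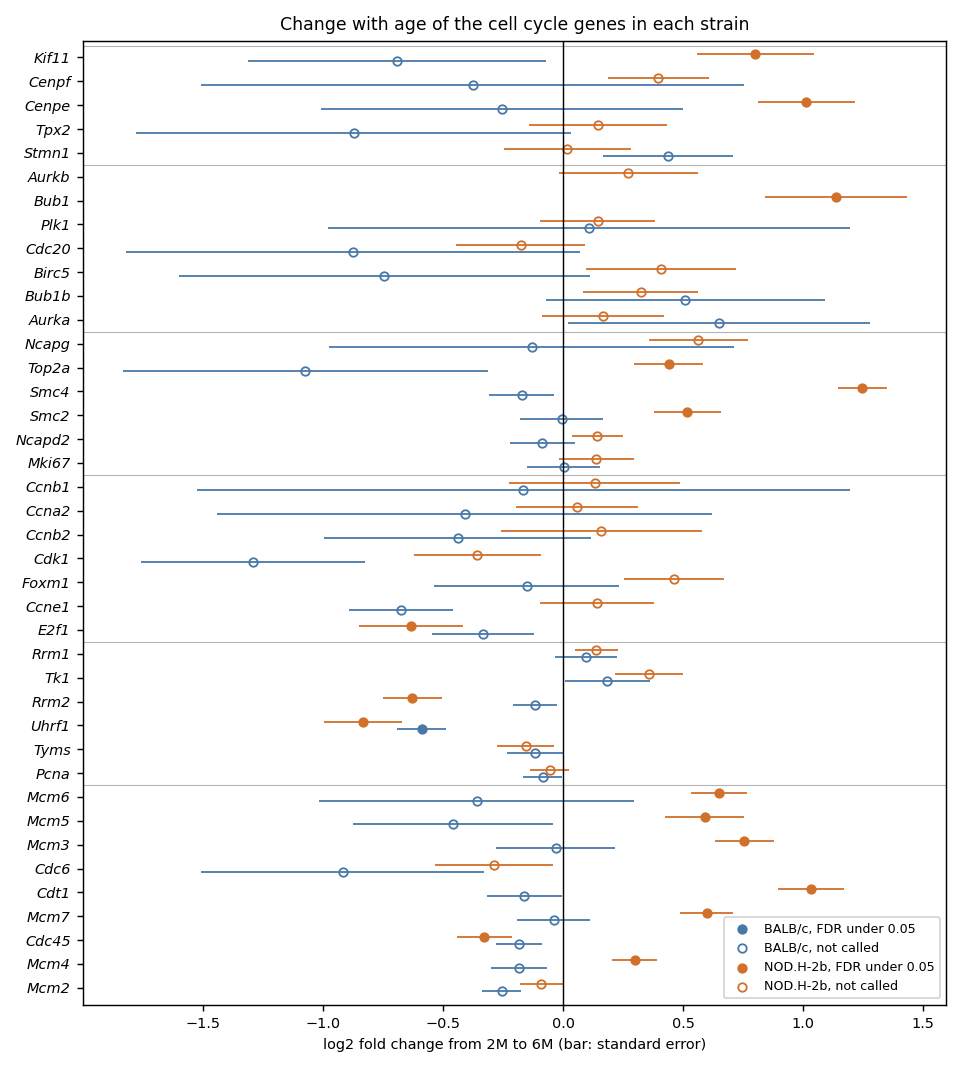
Log2 fold change from 2M to 6M (x axis, bars are standard errors) of the genes (y axis, by role) in BALB/c (blue) and NOD.H-2b (orange). Filled symbols have an FDR under 0.05: 12 genes lie to the right of 0 and 4 to the left in NOD.H-2b, and 1 (Uhrf1) to the left in BALB/c, where Aurkb and Bub1 were not tested.

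The difference in the change with age between the strains was tested in the fit of all 18 mice. From 2M to 4M, Smc4 was called (1.08 ± 0.19 higher in NOD.H-2b on the log2 scale, adjusted p = 0.00914), 1 of 40 genes, where 0.696% of all genes were called higher and 0.978% lower. From 2M to 6M, 3 genes were called higher, Smc4 (1.43 ± 0.19), Cdt1 (1.20 ± 0.23) and Mcm7 (0.65 ± 0.20), with adjusted p of 0.000483, 0.00333 and 0.0378, where 7.04% of all genes were called higher and 9.09% lower. The count of 3 of 40 is close to that share of all genes called higher. The median of the 40 genes was 0.82 from 2M to 4M and 0.58 from 2M to 6M, beside 0.01 and -0.031 over all genes. Without BALB/c 6M replicate 3, 17 genes were called higher from 2M to 6M and 0 lower, where 5.4% of all genes were then called higher and 10.5% lower, among them Cenpf (3.06 ± 0.59, adjusted p = 0.00461), Cenpe (2.65 ± 0.54, adjusted p = 0.00571) and Top2a (2.53 ± 0.40, adjusted p = 0.00276). Without NOD.H-2b 4M replicate 1, 5 were called higher from 2M to 6M. From 2M to 4M, 3 were called higher without BALB/c 6M replicate 3, and 2 without BALB/c 2M replicate 3 or NOD.H-2b 4M replicate 2. Mcm7 was not called in 11 of the fits that left out 1 mouse.

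The markers of immune cells moved with strain and age beside the cell cycle genes. At 2M, 4M and 6M, 22.5%, 23.4% and 28.6% of all genes were higher and 17.2%, 19.2% and 25.8% lower. The counts of called genes in each cell type list are read against these shares. The 10 B cell genes summed to 0.264 to 2.83 CPM in the BALB/c mice, and to 2.02, 38.4 and 15.8 CPM in NOD.H-2b replicates 1, 2 and 3 at 2M, 197 to 435 CPM at 4M and 301 to 605 CPM at 6M. All 10 B cell genes were higher at 4M and at 6M, and 3 of 5 tested at 2M. The T cell genes (10 of 10 higher at each age) summed to 0.406 to 6.65 CPM in BALB/c, while the NOD.H-2b mice had 9.33 to 33.8 CPM at 2M, 74.5 to 131 CPM at 4M and 81.0 to 111 CPM at 6M. The macrophage genes (10, 8 and 8 of 10 higher) summed to 60.6 to 128 CPM in BALB/c and to 184 to 287 CPM in NOD.H-2b. The 7 mitotic kinase and checkpoint genes summed to 0.94 to 5.26 CPM in BALB/c and to 7.43 to 12.3 CPM in NOD.H-2b. Between the NOD.H-2b mice of 2M and those of 6M, the mean sum of the B cell genes went from 18.8 to 434 CPM, and that of the 7 mitotic genes from 9.38 to 11.1 CPM. NOD.H-2b 2M replicate 1, with the lowest B cell sum of its group, had a mitotic sum of 8.41 CPM, between those of the other NOD.H-2b 2M mice (7.43 and 12.3 CPM). Without that mouse, 28 of the 40 genes were higher at 2M and 2 lower, where 21.1% of all genes were then higher and 16.3% lower. The plasma cell genes (4, 6 and 6 of 10 higher and 1, 1 and 3 lower) had mean sums of 689.1, 1486 and 1479 CPM in the 3 ages of BALB/c, beside 1185, 3431 and 3304 CPM in NOD.H-2b, without overlap of the mice at any age. Jchain of this list had means of 8.93, 173.4 and 193.7 CPM in BALB/c and 110.2, 546.2 and 605.9 CPM in NOD.H-2b. Other genes of the list thus made up most of each sum, and the part of plasma cells in it was not tested. Of the stroma and endothelium genes, 6, 2 and 4 of 10 were higher and 1, 1 and 0 lower, and the 2 of 10 at 4M is near the share of all genes. Their mean sums at 2M, 4M and 6M were 619.9, 495.2 and 404.3 CPM for BALB/c beside 800.6, 413 and 421.3 CPM for NOD.H-2b. Of the erythroid genes, 3 of 6, 2 of 5 and 2 of 5 tested were higher and 1 lower at each age. Their mean sums at 2M, 4M and 6M were 31.31, 40.28 and 42.92 CPM for BALB/c beside 63.04, 74.55 and 45.48 CPM for NOD.H-2b. Acinar genes were lower in NOD.H-2b (6, 6 and 9 of 10 at 2M, 4M and 6M, 0 higher). The part of each cell type in the cell cycle values was not tested.

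**Figure D4:**
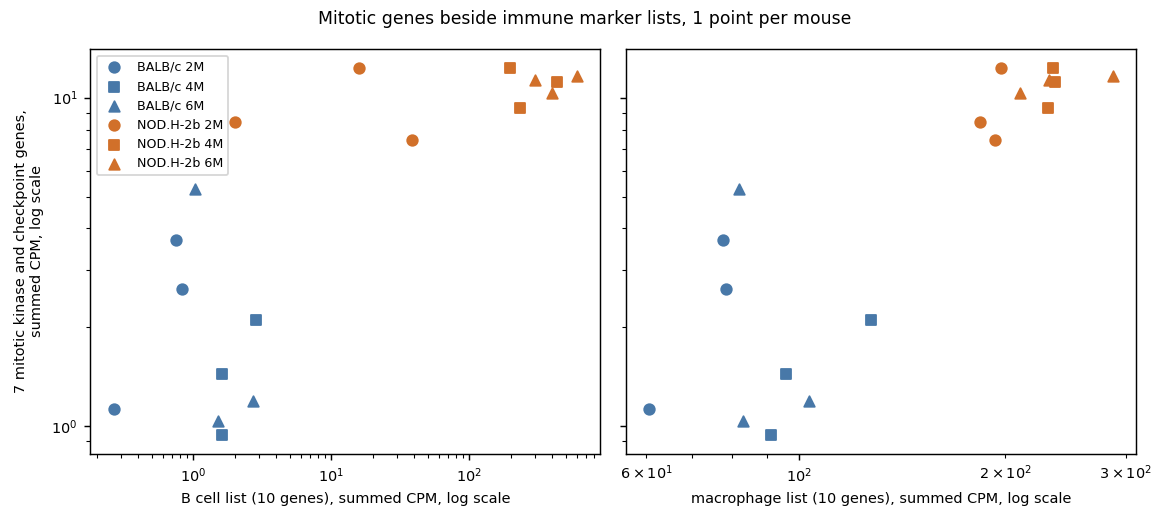
Summed CPM of the 7 mitotic kinase and checkpoint genes (y axis, log scale) beside the summed CPM of 10 B cell genes (left) and 10 macrophage genes (right; both x axes on a log scale), 1 point per mouse. All NOD.H-2b mice lie above 7 CPM of mitotic genes while their B cell sums run from 2.02 to 605 CPM.

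The germinal centre B cell list had 4 of 7 tested genes higher at 2M, 3 of 7 at 4M and 6 of 8 at 6M, and 0 lower at each age. These counts are read against the same shares of all genes as the other cell type lists. Its mean sums were 54.9, 104.4 and 87.86 CPM for BALB/c at the 3 ages, beside 52.63, 75.78 and 66.25 CPM for NOD.H-2b, and the mice of the strains overlapped at each age.

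The level of Mki67 was also set against Ptprc (CD45, carried by nearly all leukocytes) within each mouse. Mki67 had 447, 420 and 476 counts per 100 counts of Ptprc in BALB/c 2M, 223, 220 and 89.3 in BALB/c 4M, and 264, 213 and 357 in BALB/c 6M. In NOD.H-2b it had 102, 29.6 and 62.8 at 2M, 14.2, 18.7 and 25.1 at 4M, and 11.6, 19.7 and 12.2 at 6M. The NOD.H-2b mice lay below the BALB/c mice at each age. The log2 ratio differed by -3.45 averaged over the ages (two-sided exact permutation test within ages, p = 0.00025, the smallest that the 8000 arrangements allow). With Top2a or Ccna2 in place of Mki67, chosen after seeing the data, the differences were -1.35 and -1.10 (exact permutation p = 0.0005 and 0.015). Ptprc itself was higher in NOD.H-2b at each age (3.22 ± 0.46, 3.80 ± 0.46 and 4.62 ± 0.20 on the log2 scale, adjusted p = 0.00656, 0.00299 and 7.72e-07 by edgeR's quasi-likelihood test), and a ratio shows only that the 2 genes changed unequally.

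Other genes of the pathway, taken from lists, are given by their counts, to be read against the 22.5%, 23.4% and 28.6% of all genes that were higher and the 17.2%, 19.2% and 25.8% that were lower at 2M, 4M and 6M. In the list of 59 further mitotic and kinetochore genes, 44 of 56 tested were higher and 2 lower at 2M, 50 of 59 higher and 2 lower at 4M, and 45 of 59 higher and 2 lower at 6M, with medians of 1.71, 2.93 and 2.24. The largest at 6M were Ndc80 (the microtubule-binding arm of the kinetochore, 4.38 ± 0.77) and Cdc25c (the phosphatase that activates Cdk1, 4.08 ± 0.57), while Ncaph2, an abundant condensin II subunit, was lower (-0.40 ± 0.070) and Ncapd3, another, was not called (0.071 ± 0.087). In the BALB/c 6M mice, Ndc80 had 0 to 9 counts and Cdc25c 1 in each mouse. Both therefore passed the filter through the NOD.H-2b mice, and their differences rest on few BALB/c counts. Of 39 origin and replication genes, 18 of 39, 18 of 38 and 20 of 39 tested were higher at 2M, 4M and 6M and 3, 2 and 3 lower. Orc1 (the large subunit of the origin recognition complex) differed by 3.53 ± 0.47 at 6M and Pole (the catalytic subunit of DNA polymerase epsilon) by 3.22 ± 0.51, whereas the abundant Rpa1 (a single-strand binding protein) differed by -0.20 ± 0.077 and was not called, and Tfdp1 (the partner of E2F factors) was lower (-0.40 ± 0.11). Orc1 had 1 to 4 counts in the BALB/c 6M mice and likewise passed the filter through the NOD.H-2b mice. In the list of replication checkpoint and repair, 11, 13 and 12 of 21 genes were higher and 0, 1 and 0 lower, with Pclaf (a PCNA-binding factor) at 4.50 ± 0.42 and Fanca at 3.62 ± 0.58 at 6M, and the abundant Atr and Topbp1 (sensors of stalled forks) at 0.48 ± 0.094 and 0.82 ± 0.081. Pclaf, with 1 to 6 counts in the BALB/c 6M mice, also passed the filter through the NOD.H-2b mice. Fanca had 4 to 19 counts in the BALB/c 6M mice.

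Of the G1 cyclin, kinase and Rb pathway genes, 8, 9 and 11 of 29 tested were higher and 3, 4 and 5 lower at the 3 ages. These counts, and those of the inhibitors below, are read against the same shares of all genes. E2f8, a repressive E2F, was at 3.13 ± 0.42 at 6M, and Mybl1, of the B-Myb family and also a germinal centre marker, at 2.23 ± 0.32. In the BALB/c 6M mice, E2f8 had 4 to 12 counts and Mybl1 9 to 26. The abundant Rbl2 (p130, of the DREAM complex) and Rbbp4 (a histone-binding protein) were lower at 6M (-0.25 ± 0.082 and -0.23 ± 0.069). Of the inhibitors, 7 of 15 tested were higher and 2 lower at each age. Cdkn1a (p21, an inhibitor of cyclin-dependent kinases) differed by 3.45 ± 0.24, 2.99 ± 0.48 and 3.28 ± 0.71 at 2M, 4M and 6M (adjusted p = 7.61e-07, 0.00195 and 0.00703), and Btg1, an antiproliferative gene that is abundant in lymphocytes, by 1.10 ± 0.17, 2.12 ± 0.25 and 2.67 ± 0.14. Ccng1, the most abundant of the list in CPM, differed by -0.18 ± 0.085 at 6M and was not called.

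Histone genes of the Hist1 to Hist4 clusters were taken by symbol and are read against the same shares of all genes. Replication-dependent histone mRNAs lack a poly(A) tail and are kept by depletion of ribosomal RNA. Whether each gene taken by symbol is expressed only in S phase was not tested. Of 67 histone genes in the Hist1 to Hist4 clusters, 36 of 55 tested were higher and 5 lower at 2M, 43 of 56 higher and 5 lower at 4M, and 43 of 56 higher and 4 lower at 6M, with medians of 0.85, 1.28 and 1.495. Hist1h1c, the most abundant in CPM, differed by 0.92 ± 0.10, 1.17 ± 0.15 and 1.36 ± 0.13, and Hist1h1e by 0.85 ± 0.21, 0.79 ± 0.19 and 0.97 ± 0.10. Hist1h2bc was higher at 2M (0.61 ± 0.14) and lower at 4M and 6M (-0.36 ± 0.13 and -0.46 ± 0.14). The histone genes are near-identical copies, so the division of reads among them is uncertain.

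Counts of several genes of the set may hold reads of a neighbour, since the strand setting of the counting is not given in the sources used here. Exons of Ccna2 overlap those of Exosc9, Cdc20 those of Elovl1, Ncapg those of Lcorl and Plk1 those of Gm44985, each on the other strand, and exons of Foxm1 overlap those of Tex52 and Gm44596 on the same strand. Also on the same strand, exons of Ncapd2 overlap those of Scarna10 and Gm28967, Top2a those of Gm23451 and Stmn1 those of Gm23634. How much these overlaps moved the counts was not tested.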

How the data were processed

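RNA of 1 LG from each of 18 male mice was sequenced in paired ends after depletion of ribosomal RNA. The authors used cutadapt for trimming, FastQC for quality, STAR for alignment to GRCm38 and HTSeq for counts per gene. Not given in the sources used here are the annotation release, whether strand was used, and what was done with multi-mapped reads. The deposited table of raw counts per gene was analysed here. The deposited log2 table, which the authors made from the same counts with DESeq2 size factors, was used only for a check that its values follow from the counts. Columns of gene names came from GENCODE M21 (54165 of 54232 identifiers matched), and 21452 genes had no counts.

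Counts were fitted with edgeR 4.0.16 (limma 3.58.1, R 4.3.3) by the robust quasi-likelihood test after TMM normalization and filterByExpr, with Benjamini-Hochberg adjustment over all genes tested (FDR under 0.05). Strains at 1 age and ages within 1 strain were fitted on their own 6 mice. The strain difference averaged over ages and the strain by age contrasts were fitted on all 18. DESeq2 1.42.0 was an alternative. Other alternatives were DESeq2 size factors, a minimum of 10 counts in every mouse, the omission of any filter, the replicate number as a block, 1 fit of all 18 mice, and leaving out each mouse. The ratio of Mki67 to Ptprc counts was tested by an exact permutation test within ages. The tests were checked on simulated data. Samples were grouped by their labels, each mouse being 1 replicate. Totals of 49480781 to 103936830 counts per mouse set the counting error. Replicates differed beyond counting noise (chi-square per gene of 17.7 to 91.1). Of 45 pairs of mice with the same replicate number in different groups, the correlations of their deviations ran from -0.421 to 0.432, and 7 were above 0.1, so numbers were not taken as pairs.

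The 40 genes and all gene lists were chosen with earlier results of these data known. Values in every mouse are given for the 2 genes of each role with the highest mean CPM, Mki67, the 3 highest and 3 lowest log2 fold changes at 6M, genes lower at any age and genes called in a strain by age contrast. From each list of other pathway genes the 2 highest in mean CPM and the 2 with the largest called change at 6M are named, and the 3 histone genes highest in mean CPM. Other genes were named for their roles. Levels per kilobase use the union of GENCODE exons. Promoter sequences are from RefSeq. Some items are not reported here.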

Additional observations from a re-analysis of the deposited data

Results flagged for a closer look

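The change with age differed between the strains for 3 genes, by the test of the strain by age term in the fit of all 18 mice (edgeR's quasi-likelihood test). They were 3 of the 40 genes from 2M to 6M, where 7.04% of all genes were called higher and 9.09% lower, and 1 of 40 from 2M to 4M, where 0.696% were called higher and 0.978% lower. The count from 2M to 6M is close to the share of all genes called higher, so it is not particular to the set. For Smc4 the difference was 1.08 on the log2 scale from 2M to 4M and 1.43 from 2M to 6M, with NOD.H-2b higher. Leaving out each mouse in turn gave 0.90 to 1.17 (adjusted p = 0.00389 to 0.0317) and 1.29 to 1.55 (adjusted p = 5.6e-05 to 0.00207). For Cdt1 it was 1.20 from 2M to 6M, with 1.11 to 1.29 when each mouse was left out (adjusted p = 0.00084 to 0.0116). For Mcm7 it was 0.65 from 2M to 6M, with 0.52 to 0.74 when each mouse was left out (adjusted p = 0.0193 to 0.115), and in 11 of these fits it was not called.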

How the results depend on the processing

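The direction of the strain difference at each age held for most genes under the alternatives run. Values of single genes were counted for all strain differences, including the average over the ages. Called changes with age and called strain by age terms were counted with them. Of these values, 2525 kept their direction and side of the threshold, 193 were no longer called, 22 became called and 19 turned direction. The counts of genes that moved by over 1.5 times were the following, and the cause was not tested. With at least 10 counts in every mouse, 19 genes were higher averaged over the ages (fewer genes were tested), 0 were lower at 6M, 2 fell between 2M and 6M in NOD.H-2b and 6 were higher in the strain by age contrast from 2M to 6M. With no filter, 12 fell in BALB/c from 2M to 4M, 2 from 2M to 6M, and 1 rose from 4M to 6M. With DESeq2's Wald test, 0 were lower at 6M, 1 rose in BALB/c from 4M to 6M, 1 fell between 2M and 4M in NOD.H-2b, and 4 and 6 were higher in the strain by age contrasts from 2M to 4M and from 2M to 6M. With DESeq2 size factors, 5 were higher in the latter. In 1 fit of all 18 mice, 2 fell in BALB/c from 2M to 4M and 0 from 2M to 6M, and in NOD.H-2b 1 fell from 2M to 4M and 6 rose from 2M to 6M.

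With the replicate number as a block, 0 genes were lower at 6M, 3 fell in BALB/c from 2M to 4M, and in NOD.H-2b 0 rose from 2M to 4M, 1 rose from 4M to 6M, and 7 rose and 2 fell from 2M to 6M. The numbers do not mark a shared litter or day in the labels, and the mice share only a number.

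Leaving out each mouse in turn gave 23 to 33 genes higher at 2M, 22 to 31 higher and 0 to 1 lower at 6M, 2 to 9 that fell in BALB/c from 2M to 4M, 1 to 16 from 2M to 6M, in NOD.H-2b 2 to 6 that rose and 0 to 2 that fell between 2M and 4M, 0 to 1 in each direction from 4M to 6M, and 6 to 12 that rose and 2 to 3 that fell from 2M to 6M. In the strain by age contrasts it gave 1 to 3 higher from 2M to 4M, and 2 to 17 higher and 0 to 1 lower from 2M to 6M. The highest counts of 16 and 17 came without BALB/c 6M replicate 3, where 7.13% and 5.4% of all genes were called in the same direction. The Mki67 to Ptprc difference stayed between -3.60 and -3.29, and was -1.26 with the leukocyte list and -6.10 with the B cell list as the denominator.

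The following values turned direction. Tyms was at 0.007, 0.004 and 0.014 at 2M, 6M and averaged over the ages with at least 10 counts in every mouse. Tyms was at 0.002 at 2M without BALB/c 2M replicate 2, 0 without NOD.H-2b 2M replicate 2, -0.107 and -0.063 at 4M without BALB/c 4M replicate 2 or NOD.H-2b 4M replicate 3, 0.013 at 6M without NOD.H-2b 6M replicate 1, and 0.022 on average without BALB/c 4M replicate 1. E2f1 was at -0.09 at 2M and -0.007 on average without NOD.H-2b 2M replicate 3, -0.009 on average without NOD.H-2b 4M replicate 3, and 0.067 at 6M without BALB/c 6M replicate 3. When each mouse was left out, Tyms ranged from -0.04 to 0.002 at 2M, -0.107 to 0.137 at 4M, -0.1 to 0.013 at 6M and -0.068 to 0.022 on average, E2f1 from -0.09 to 0.315 at 2M, -0.355 to 0.067 at 6M and -0.009 to 0.163 on average, and Uhrf1 from -0.013 to 0.405 at 4M and 0 to 0.142 on average. Uhrf1 was at -0.013 at 4M and 0 on average without NOD.H-2b 4M replicate 3. Pcna with the counts of Pcna-ps2 added, chosen after seeing the data, was at 0.009, 0.121, 0.009 and 0.019 at 2M, 4M, 6M and averaged. With 3 mice in a group, and fewer than 20 counts of Bub1 in every BALB/c mouse, small differences of low genes were not detectable at this depth.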
